A study of Mus musculus with 6 samples.

Results

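The genes of the proteasome were described in RNA of sorted tumour cells. The symbols that begin with Psma, Psmb, Psmc, Psmd, Psme, Psmf or Psmg and a number were taken, protein-coding genes only, without the immunoproteasome genes Psmb8, Psmb9 and Psmb10. This gave 47 of the 25978 genes measured, of which 16 belong to the core (a and b), 21 to the regulatory particle (c and d) and 10 to activators, an inhibitor and assembly factors (e, f and g). The symbol pattern also takes Psmc3ip, a meiotic recombination factor that binds Psmc3 and is no subunit. Cells came from primary pancreatic tumours of KPCY mice, whose alleles include Pdx1-Cre, Trp53fl/fl and Rosa26LSL-YFP, on a C57BL/6 background, at 5 to 7 weeks of age. Yellow fluorescent protein (YFP) marks cells in which Cre has acted, and YFP-positive cells were sorted into EpCAM- and EpCAM+ populations by the epithelial surface protein EpCAM, with 3 libraries of each. Both groups share the same genotype, and Pdx1-Cre acts in the whole pancreatic lineage, so not every sorted cell need be a tumour cell.

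The proteasome is the protease that degrades ubiquitin-tagged proteins in the cytosol and nucleus. Its barrel-shaped core is built from rings of alpha and beta subunits, and 3 of the beta subunits carry the active sites. The regulatory particle docks on the barrel, recognises the ubiquitin chain, removes it and threads the unfolded protein inwards with a ring of ATPases. Because subunits are used in fixed proportions, cells are known to adjust their genes together, largely through the transcription factor NRF1 (Nfe2l1), which binds antioxidant response elements. Activators such as those encoded by Psme1 to Psme4 can dock in place of the regulatory particle.

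The deposited values are normalised log2 levels, which keep no read depth, and differences below are EpCAM- minus EpCAM+ on that scale. Genes whose back-transformed values averaged at least 10 were tested with limma, at a Benjamini-Hochberg adjusted p under 0.05 over 15783 genes. Of the 47 members, 45 passed that filter. The sort showed in the values: the 5 epithelial markers Epcam, Cdh1, Krt8, Krt18 and Krt19 all fell. Other markers differed too, and their part in the results below was not tested. All 7 fibroblast markers rose, with a summed back-transformed level between 31624 and 143410 in EpCAM- libraries and between 1031 and 10128 in EpCAM+ libraries. All 6 acinar markers fell, with sums between 487 and 563 in EpCAM- libraries and between 55720 and 110801 in EpCAM+ libraries. Of 8 macrophage and leukocyte markers, 6 were tested and all 6 fell, with sums between 315 and 535 in EpCAM- libraries and between 964 and 4412 in EpCAM+ libraries, while the others were under the filter. Of 4 endothelial markers, 3 were tested and 1 rose, Kdr, with sums between 158 and 168 in EpCAM- libraries and between 69.7 and 106 in EpCAM+ libraries. In such pooled RNA, fewer cells of a type and less RNA per cell cannot be told apart.

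Proteasome genes were modestly higher in EpCAM- cells, in most genes of the core and of the regulatory particle. Of the 45 tested members, 26 rose and 1 fell, while 18 did not pass. Of all tested genes, 20.3% rose and 23.1% fell, 43.4% in either direction. The median log2 difference was 0.38 over the members and 0.0043 over all tested genes. The 23 core and regulatory subunit genes that rose, Psmc3ip not counted, had log2 differences between 0.31 (Psmc3) and 0.67 (Psmc2), and Psmc2 was 1.59-fold higher. Values of all EpCAM- libraries lay above those of all EpCAM+ libraries for 30 members, as for 27.1% of all tested genes, and below them for 4 members, as for 29.2%. Core and regulatory members together held 115189 ± 9880 back-transformed units in EpCAM- libraries and 88261 ± 3419 in EpCAM+ libraries (SD, n = 3 each), a ratio of 1.31. Leaving out EpCAM+ replicate 2 left 13 that rose, with 15.8% of all tested genes, and leaving out EpCAM+ replicate 3 left 15, with 13.6%. Leaving out both EpCAM- replicate 3, the lowest of its group in fibroblast markers, and EpCAM+ replicate 1, the highest of its group in them, left 6, with 12.1% of all tested genes. The 6 were Psmb3, Psmb7, Psmc2, Psmc6, Psmd1 and Psmd2, which passed under all 19 alternative settings.

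**Figure D1:**
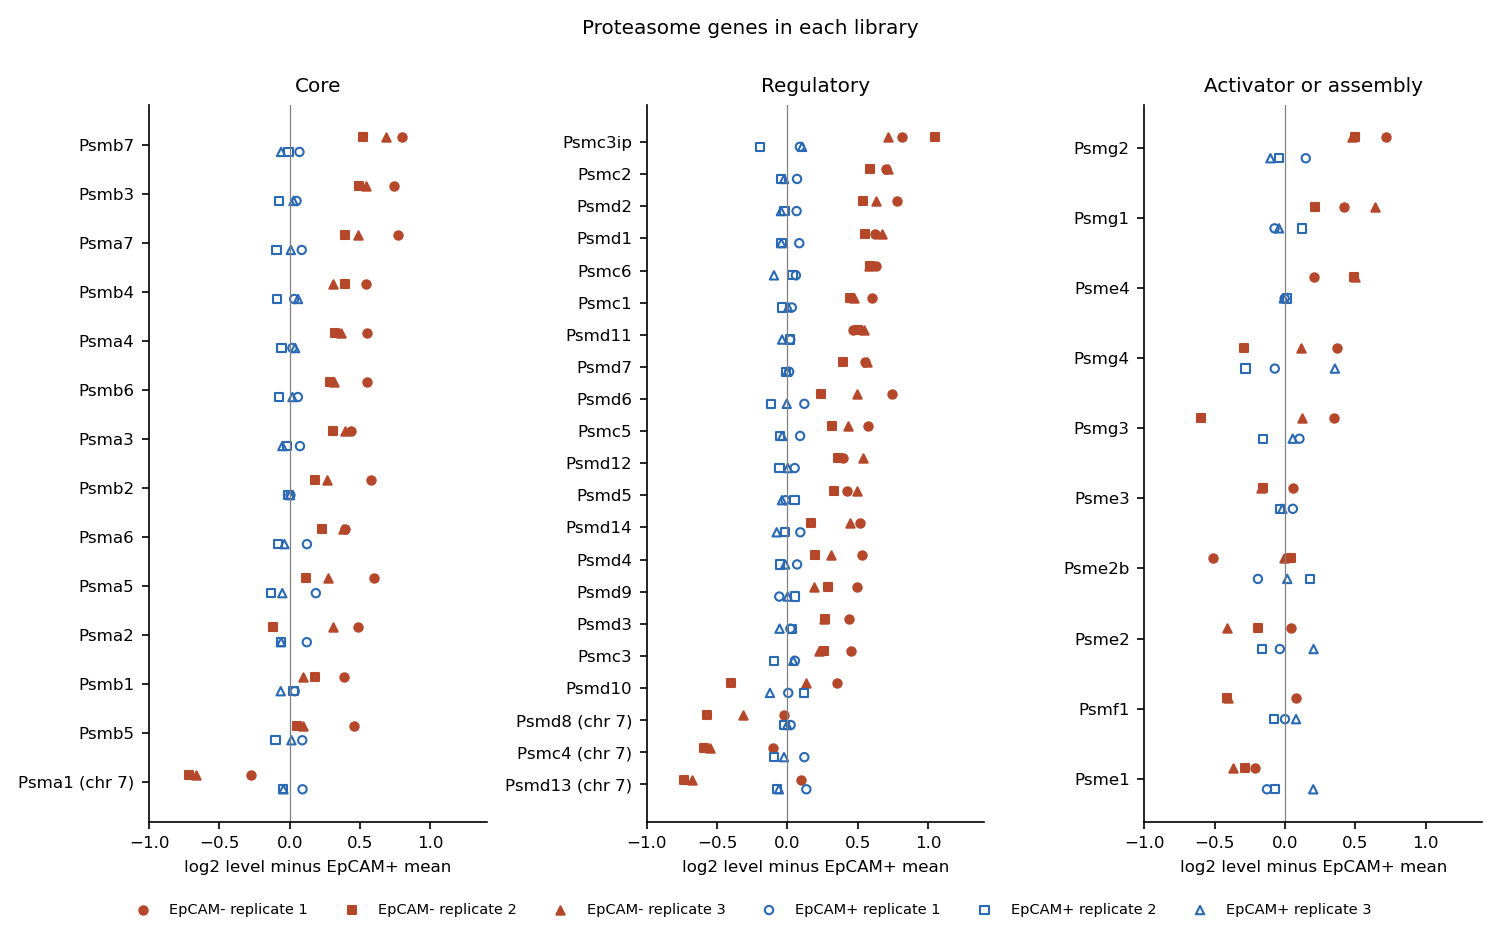
Log2 level of each tested proteasome gene in each library, minus the mean of the 3 EpCAM+ libraries of that gene, by class and ordered by the difference between groups. Filled red symbols are EpCAM- libraries and open blue symbols are EpCAM+ libraries. Most core and regulatory genes have all red symbols to the right of the blue ones, and the genes marked as lying on chromosome 7 have them to the left of the blue ones, except Psmd13, whose EpCAM- replicate 1 lies among the blue ones.

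In the core, 8 of the 14 tested genes rose and 1 fell. The catalytic subunits were not alike in their calls. Psmb7, the trypsin-like beta subunit (GRCm38, as for all coordinates here, chromosome 2, 38588036 to 38644087), had log2 levels of 12.23, 11.96 and 12.12 across EpCAM- replicates 1 to 3, against 11.50, 11.43 and 11.37 across EpCAM+ replicates 1 to 3. The groups did not overlap, and its difference of 0.67 ± 0.11 (SE, adjusted p = 0.00244) was the highest of the core. An opposite-strand gene, Nek6, covers 11.8% of its annotated exon bases, and no source used here says whether counting used strand. Psmb6, the caspase-like subunit, had log2 levels of 11.56, 11.30 and 11.33 across EpCAM- replicates 1 to 3, against 11.07, 10.93 and 11.03 across EpCAM+ replicates 1 to 3. It rose by 0.39 ± 0.11 (SE, adjusted p = 0.0251), again without overlap. Psmb5, the chymotrypsin-like subunit and the main target of proteasome inhibitor drugs, had log2 levels of 10.71, 10.30 and 10.34 across EpCAM- replicates 1 to 3, against 10.34, 10.15 and 10.27 across EpCAM+ replicates 1 to 3. EpCAM- replicate 1 was highest, EpCAM- replicate 3 lay just above the highest EpCAM+ value and EpCAM- replicate 2 within EpCAM+. The difference of 0.20 ± 0.14 (SE, adjusted p = 0.276) did not pass, with a 95% interval between -0.12 and 0.52. Whether Psmb5 differs less than Psmb7 was not tested.

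The structural core genes followed the same direction with 1 exception. Psmb3, a non-catalytic beta subunit, had log2 levels of 11.51, 11.26 and 11.32 across EpCAM- replicates 1 to 3, against 10.82, 10.69 and 10.80 across EpCAM+ replicates 1 to 3, a difference of 0.59 ± 0.10 (SE, adjusted p = 0.00375). Psma7, an alpha subunit, had log2 levels of 12.27, 11.90 and 11.99 across EpCAM- replicates 1 to 3, against 11.59, 11.41 and 11.51 across EpCAM+ replicates 1 to 3. EpCAM- replicate 1 stood highest, no library overlapped with the other group, and the difference was 0.55 ± 0.13 (SE, adjusted p = 0.0115). Psma3, Psma4, Psma6 and Psmb4 rose by between 0.33 and 0.42. Psma2 (0.22, adjusted p = 0.313), Psma5 (0.33, adjusted p = 0.125), Psmb1 (0.22, adjusted p = 0.146) and Psmb2 (0.34, adjusted p = 0.0612) were above 0 and did not pass. Psma1, an alpha subunit (chromosome 7, 114264606 to 114276118), was the exception, with log2 levels of 11.003, 10.57 and 10.61 across EpCAM- replicates 1 to 3, against 11.37, 11.23 and 11.24 across EpCAM+ replicates 1 to 3. Every EpCAM- value lay below every EpCAM+ value, and its difference of -0.55 ± 0.14 (SE, adjusted p = 0.0161) was the only fall among the members. That call was lost when either EpCAM- replicate 3 or EpCAM+ replicate 1 was left out (adjusted p = 0.0529 and 0.0586), and when both were.

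The core genes with a restricted tissue use were close to absent. Psma8, the alpha subunit of male germ cells, and Psmb11, the beta subunit of thymic epithelium, were both under the filter. Psma8 had a log2 level of at most -0.23 and Psmb11 of at most 0.87 in any library.

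In the regulatory class, 16 of 21 genes rose and none fell at the threshold, with Psmc3ip counted among those that rose. The ring of ATPases is encoded by Psmc1 to Psmc6, of which 5 rose. Psmc2 (chromosome 5, 21785283 to 21803787) had log2 levels of 11.93, 11.81 and 11.94 across EpCAM- replicates 1 to 3, against 11.29, 11.18 and 11.20 across EpCAM+ replicates 1 to 3. The groups were far apart relative to their spread, and its difference of 0.67 ± 0.0915 (SE, adjusted p = 0.00119) had the lowest adjusted p of all members. Psmc6 rose by 0.60 ± 0.0912 (SE, adjusted p = 0.00194), Psmc1 by 0.51, Psmc5 by 0.44 and Psmc3 by 0.31, while Psmc4 is given below with the other genes of chromosome 7. The call of Psmc3 was near the threshold (adjusted p = 0.0472) and held under 8 of the 19 alternative settings. Psmc3ip, which is no ATPase, had log2 levels of 7.02, 7.25 and 6.92 across EpCAM- replicates 1 to 3, against 6.29, 6.01 and 6.31 across EpCAM+ replicates 1 to 3 and rose by 0.86 ± 0.19 (SE, adjusted p = 0.00944). It is expressed at a low level, and the opposite-strand gene Mlx covers 21.2% of its exon bases.

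The scaffold subunits Psmd1 and Psmd2 rose more than the ubiquitin-handling subunits Psmd4 and Psmd14 by value, a difference that was not tested. Psmd2, the large scaffold subunit that also binds shuttle factors (chromosome 16, 20651652 to 20663414), had log2 levels of 13.64, 13.40 and 13.49 across EpCAM- replicates 1 to 3, against 12.93, 12.84 and 12.82 across EpCAM+ replicates 1 to 3. No value overlapped, and the difference was 0.65 ± 0.11 (SE, adjusted p = 0.00349). Psmd1, the other large scaffold, had log2 levels of 12.90, 12.83 and 12.95 across EpCAM- replicates 1 to 3, against 12.36, 12.24 and 12.24 across EpCAM+ replicates 1 to 3 and rose by 0.62 ± 0.10 (SE, adjusted p = 0.00229). Psmd4, a receptor for ubiquitin chains, had log2 levels of 12.11, 11.78 and 11.89 across EpCAM- replicates 1 to 3, against 11.65, 11.52 and 11.56 across EpCAM+ replicates 1 to 3, with a smaller difference of 0.35 ± 0.11 (SE, adjusted p = 0.0448). Psmd14, the metalloprotease that cuts the chain off, had log2 levels of 11.82, 11.48 and 11.75 across EpCAM- replicates 1 to 3, against 11.40, 11.29 and 11.23 across EpCAM+ replicates 1 to 3. Its lowest EpCAM- value, in replicate 2, was close to its highest EpCAM+ value, and the difference was 0.38 ± 0.12 (SE, adjusted p = 0.04). The calls of Psmd4 and Psmd14 each held under 10 of the 19 alternative settings. The further subunits of the lid, the part that holds Psmd14, comprise Psmd3, Psmd6, Psmd7, Psmd8, Psmd11, Psmd12 and Psmd13. Of the 8 lid genes, Psmd14 included, 6 rose, by between 0.32 (Psmd3) and 0.50 (Psmd11), and Psmd8 and Psmd13 did not pass.

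Psmd5, Psmd9 and Psmd10 encode chaperones that assemble the base of the regulatory particle and leave it when it is complete. Psmd5 rose by 0.42 ± 0.0929 (SE, adjusted p = 0.0105). Psmd9 (0.33, adjusted p = 0.0708) and Psmd10 (0.03, adjusted p = 0.92) did not pass, and for Psmd10, also known as gankyrin, the values in EpCAM- spread from 8.48 in replicate 2 to 9.23 in replicate 1.

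**Figure D2:**
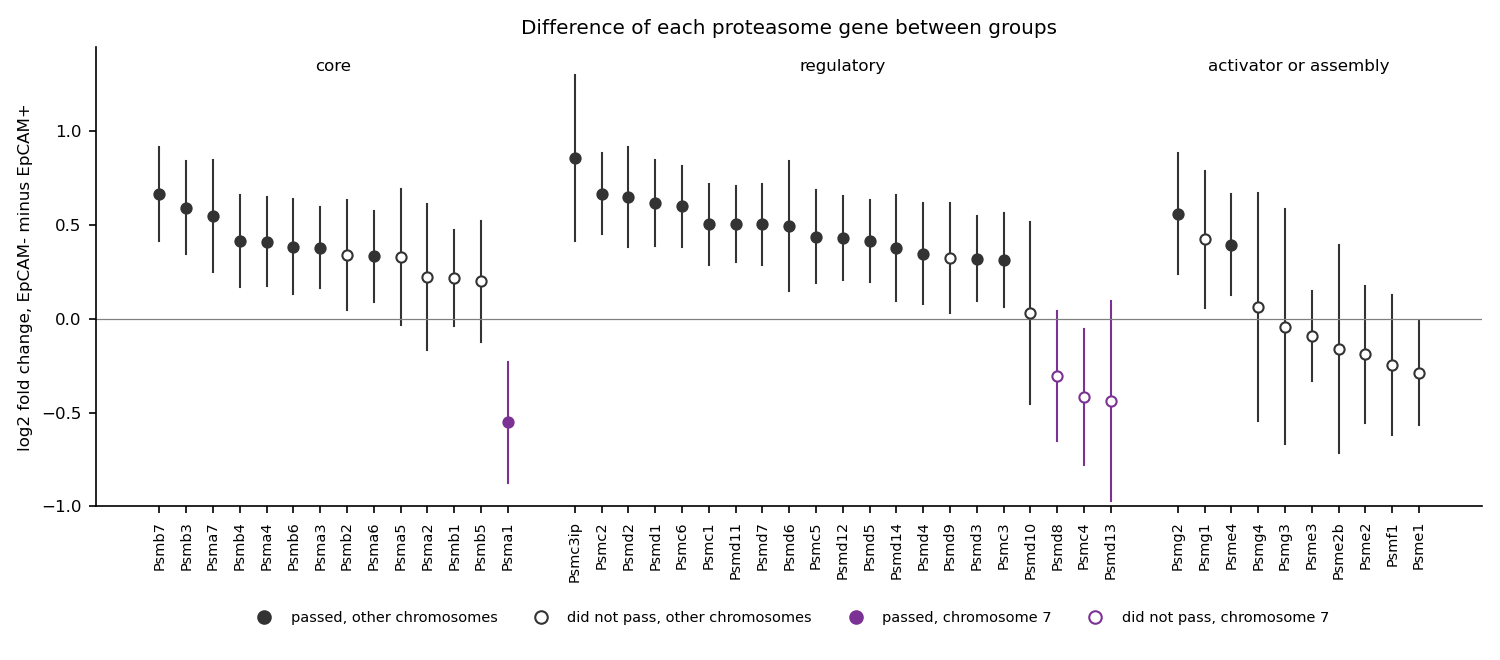
Log2 fold change of each tested member, EpCAM- minus EpCAM+, with its unadjusted 95% interval from limma, by class. Filled points passed the adjusted threshold and open points did not. All core and regulatory genes on other chromosomes are above 0, and the 4 on chromosome 7, in purple, are below 0.

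Activators, the inhibitor and assembly factors showed no common direction. Of 10 tested genes, 2 rose, 0 fell and 8 did not pass, where 20.3% of all tested genes rose and 23.1% fell. The median difference was -0.067, against 0.0043 over all tested genes, 0.36 in the core and 0.43 in the regulatory particle. The classes were not tested against each other. Psme1 and Psme2 encode the interferon-inducible activator that favours peptides for antigen presentation. Psme1 had log2 levels of 10.74, 10.67 and 10.59 across EpCAM- replicates 1 to 3, against 10.83, 10.88 and 11.16 across EpCAM+ replicates 1 to 3. Every EpCAM- value was below every EpCAM+ value, but the difference of -0.29 ± 0.12 (SE, adjusted p = 0.086) did not pass. Psme2 had log2 levels of 10.37, 10.14 and 9.92 across EpCAM- replicates 1 to 3, against 10.30, 10.17 and 10.54 across EpCAM+ replicates 1 to 3, with overlap and a difference of -0.19 ± 0.15 (SE, adjusted p = 0.358). Psme2b, a single-exon copy of Psme2 whose reads may be shared with it, had log2 levels of 4.57, 5.12 and 5.08 across EpCAM- replicates 1 to 3, against 4.89, 5.26 and 5.10 across EpCAM+ replicates 1 to 3 and a difference of -0.16 ± 0.23 (SE, adjusted p = 0.617).

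Psme3 encodes the activator of the nucleus, and it had log2 levels of 11.77, 11.55 and 11.54 across EpCAM- replicates 1 to 3, against 11.77, 11.68 and 11.69 across EpCAM+ replicates 1 to 3. The groups overlapped, the difference was -0.09 ± 0.10 (SE, adjusted p = 0.503) and its 95% interval lay between -0.33 and 0.15. Psme4, a large activator used in histone degradation, had log2 levels of 12.45, 12.73 and 12.74 across EpCAM- replicates 1 to 3, against 12.24, 12.26 and 12.24 across EpCAM+ replicates 1 to 3. It rose by 0.40 ± 0.11 (SE, adjusted p = 0.0274), and here EpCAM- replicate 1 was the lowest of its group. Psmf1, an inhibitor of the core in the test tube, had log2 levels of 9.62, 9.13 and 9.13 across EpCAM- replicates 1 to 3, against 9.54, 9.46 and 9.62 across EpCAM+ replicates 1 to 3. Replicate 1 of EpCAM- lay within EpCAM+, the others lay below, and the difference of -0.25 ± 0.16 (SE, adjusted p = 0.249) did not pass. It fell without EpCAM- replicate 1 and with array weights, at adjusted p between 0.0218 and 0.619 over all alternatives.

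Psmg1 to Psmg4 encode the chaperones that assemble the alpha ring. Psmg2, the partner of Psmg1, had log2 levels of 9.04, 8.82 and 8.80 across EpCAM- replicates 1 to 3, against 8.47, 8.28 and 8.22 across EpCAM+ replicates 1 to 3 and rose by 0.56 ± 0.14 (SE, adjusted p = 0.0146). Psmg1 was likewise above EpCAM+ in all EpCAM- libraries but did not pass (0.43, adjusted p = 0.0613). The other chaperone pair, Psmg3 (-0.04, adjusted p = 0.912) and Psmg4 (0.06, adjusted p = 0.865), overlapped between groups. In this class 0 genes rose once either EpCAM+ replicate 2 or EpCAM+ replicate 3 was left out, where 15.8% and 13.6% of all tested genes rose. With either EpCAM- replicate 3 or EpCAM+ replicate 1 left out, 1 rose, where 16.5% and 15.8% of all tested genes rose.

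The exceptions in the core and regulatory particle shared a chromosome. Psma1, Psmc4, Psmd8 and Psmd13 are the only members on chromosome 7, and all 4 were below 0, with a median difference of -0.43. The 31 tested core and regulatory members elsewhere, Psmc3ip counted, were all above 0, with a median of 0.42, and 24 of them rose. Without Psmc3ip there were 30, all above 0, and 23 rose. Of all 14565 tested genes elsewhere, 7722 were above 0 and 3131 rose, and of all 1218 on chromosome 7, 1001 were below 0. This grouping by chromosome was made after the values were seen. Psmc4, an ATPase (chromosome 7, 28041707 to 28050101), had log2 levels of 11.02, 10.53 and 10.57 across EpCAM- replicates 1 to 3, against 11.25, 11.03 and 11.10 across EpCAM+ replicates 1 to 3 and a difference of -0.42 ± 0.15 (SE, adjusted p = 0.0629). Psmd8, a lid subunit (chromosome 7, 29174188 to 29180701), had log2 levels of 12.15, 11.60 and 11.86 across EpCAM- replicates 1 to 3, against 12.20, 12.16 and 12.17 across EpCAM+ replicates 1 to 3 and a difference of -0.30 ± 0.15 (SE, adjusted p = 0.136). In both genes EpCAM- replicate 1 was just below the EpCAM+ values and replicates 2 and 3 were further below. Psmd13, another lid subunit (chromosome 7, 140881968 to 140898643), had log2 levels of 10.69, 9.86 and 9.92 across EpCAM- replicates 1 to 3, against 10.73, 10.52 and 10.53 across EpCAM+ replicates 1 to 3. Replicate 1 of EpCAM- lay within EpCAM+, replicates 2 and 3 were below it, and the difference of -0.44 ± 0.23 (SE, adjusted p = 0.159) did not pass. Without EpCAM- replicate 1, all 4 fell, where 25.4% of all tested genes fell in that setting, and their median was -0.63.

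Other genes of chromosome 7 were lower as well. Its 1218 tested genes had a median difference of -0.59, and 49.5% of them fell, while 5.42% rose. The medians of the other 19 chromosomes with at least 100 tested genes lay between -0.27 (chromosome 10) and 0.16 (chromosome 3). Relative to the EpCAM+ mean of each gene, the chromosome 7 median was -0.43, -0.71 and -0.69 across EpCAM- replicates 1 to 3, and between -0.014 and 0.025 in EpCAM+ libraries. It was smallest in size in EpCAM- replicate 1, the library in which the 4 members were also nearest to EpCAM+. Core and regulatory members elsewhere were likewise highest in that library, with medians of 0.55, 0.32 and 0.43 across EpCAM- replicates 1 to 3. When tested chromosome 7 genes were split by position into 10 runs, the median was below 0 in all 10, between -0.77 and -0.27. Each library was then centred on the median level of the tested genes of each chromosome, a setting chosen after seeing the data. A shift of median levels is not the median difference of -0.59, and here it was larger in size. Psma1 moved from -0.55 to 0.31, Psmc4 from -0.42 to 0.44, Psmd8 from -0.30 to 0.55 and Psmd13 from -0.44 to 0.42. The median of the 4 was then 0.43, against 0.47 for core and regulatory members elsewhere. How near these 2 medians lie depends on that larger shift. Psma1 (adjusted p = 0.0285), Psmc4 (adjusted p = 0.00868) and Psmd8 (adjusted p = 0.0049) then rose and Psmd13 did not pass (adjusted p = 0.052), where 25.8% of 15717 genes rose. In that setting 32 members rose, 1 fell (Psme1), the median of all tested genes was 0.13, and 57.1% of all calls were upward, against 46.7% as deposited. Whether copies of chromosome 7 differ between the groups was not tested.

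**Figure D3:**
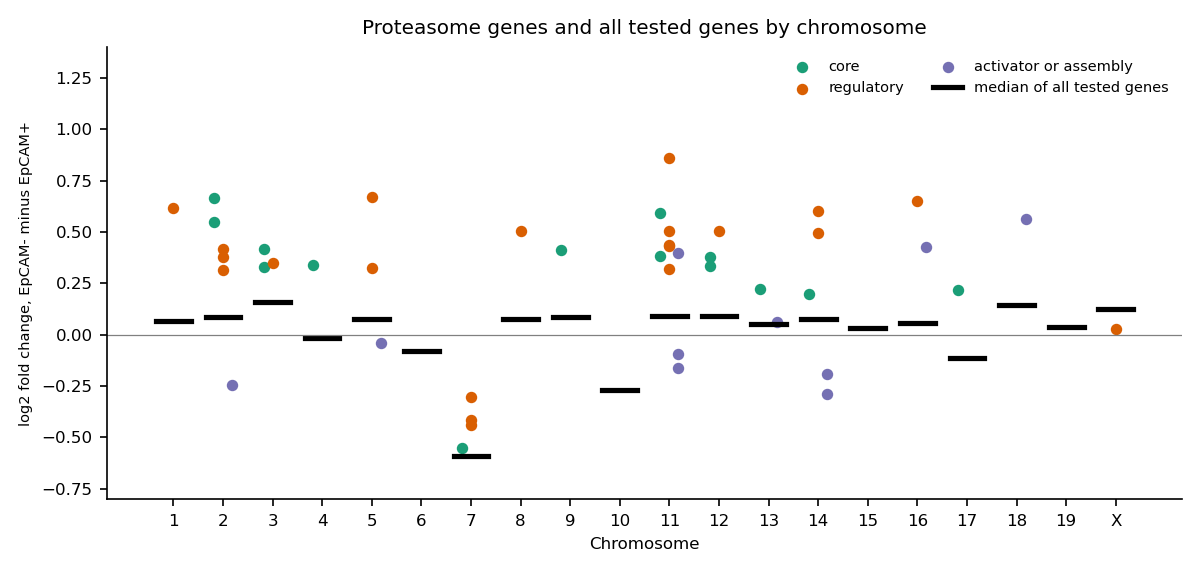
Log2 fold change, EpCAM- minus EpCAM+, of each tested member (points, coloured by class) and the median of all tested genes (black bars) for each chromosome. The bar of chromosome 7 is the lowest, at -0.59, and the 4 members on it lie between -0.55 and -0.30.

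**Figure D4:**
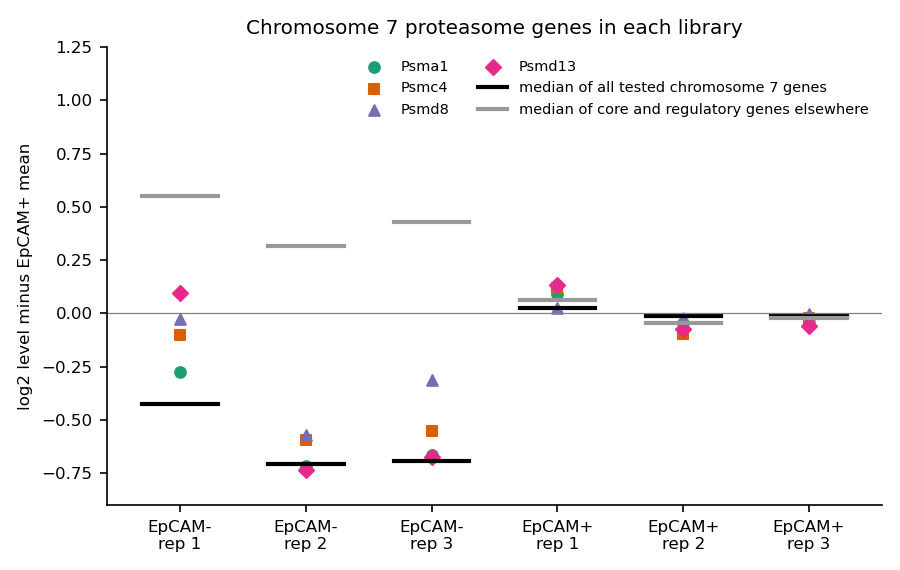
Log2 level of Psma1, Psmc4, Psmd8 and Psmd13 in each library, minus the gene's EpCAM+ mean, with the median of all tested chromosome 7 genes (black bars) and of core and regulatory members elsewhere (grey bars). The grey bars are at 0.55, 0.32 and 0.43 across EpCAM- replicates 1 to 3, and the black bars are below 0 there.

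Libraries of a group differed in overall proteasome level. EpCAM- replicate 1 had the highest value of its group for 35 of the 45 tested members, and 42.0% of all tested genes had theirs there. EpCAM+ replicate 1 had the highest value of its group for 31 members, with 38.7% of all tested genes. Replicate 2 was the lowest of its group for 31 members in EpCAM- and for 27 members in EpCAM+. The share of all tested genes that were lowest there was not computed, so these counts have no background beside them. No label says that a number marks a shared tumour. The summed core level was 47060, 38363 and 40644 across EpCAM- replicates 1 to 3, and 34594, 31662 and 32472 across EpCAM+ replicates 1 to 3. No EpCAM- sum was as low as an EpCAM+ sum. The median SD among EpCAM- libraries was 0.15 for the members, against 0.079 among EpCAM+ libraries. Over the 4986 tested genes with a mean back-transformed level between 1000 and 10000 it was likewise larger, at 0.19 among EpCAM- and 0.12 among EpCAM+ libraries. EpCAM- replicate 1 was also the highest library in proliferation genes. The 6 of them summed to 17915, 10751 and 12188 across EpCAM- replicates 1 to 3 and to between 8248 and 9319 in EpCAM+ libraries. Top2a and Ccnb1 rose, Mki67, Pcna, Mcm2 and Cdk1 did not pass, and their part in the proteasome result was not tested.

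Levels of different genes were compared per kilobase of the principal transcript. Among the 14 constitutive core genes, Psma7 was highest, at 4681 ± 655 back-transformed units per kilobase in EpCAM- libraries and 3182 ± 198 in EpCAM+ libraries (SD, n = 3 each). Psma2 was lowest, at 1005 ± 207 per kilobase in EpCAM- and at 849 ± 63.2 in EpCAM+ libraries (SD, n = 3 each). The highest exceeded the lowest 4.66-fold in EpCAM- and 3.75-fold in EpCAM+ libraries. By this measure, RNA levels of these genes, whose products are used in equal number, were not equal. Psma1 stood at 1425 ± 246 per kilobase in EpCAM- and at 2072 ± 115 in EpCAM+ libraries (SD, n = 3 each), and Psmc4 was the lowest ATPase gene in EpCAM- but not in EpCAM+ libraries. These levels depend on the transcript chosen for the length. Psma2 and Psma3, the lowest of the 14, also had the longest transcripts chosen, of 2911 and 2846 bases, against 914 for Psma7.

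Promoter sequences are shown for 4 core genes: both catalytic genes that hold an antioxidant response element match, Psmb3 as a gene that rose, and Psma1 as the gene that fell. RefSeq windows (GRCm38.p6) matched 39 of the 47 members, and the 250 bases before the start site were searched on both strands. The other catalytic gene, Psmb7, had no window and was not searched. The letters TGACNNNGC, the core of the antioxidant response element, occurred for 5 of 39 members (12.8%), against 11.5% of all 27025 genes with a window. The 5 were Psmb5, Psmb6, Psmc6, Psmd12 and Psmd9. The CCAAT box, bound by the factor NF-Y, was searched as CCAAT and occurred for 7 of 12 core genes (58.3%), 6 of 18 regulatory genes (33.3%) and 1 of 9 of the other class (11.1%), against 37.5% of all genes. These motifs do not share letters in the windows shown. Among members that rose, 3 of 21 held the first motif and 9 of 21 the CCAAT box, and among the other members 2 of 18 and 5 of 18 did. The GC box GGGCGG occurred for 21 of 39 members (53.8%), against 35.4% of all genes. Sequences run from 5′ to 3′ along the gene, and capitals mark matches to TGACNNNGC or CCAAT on either strand.
Psmb5, chr14:54617996-54618245 (- strand): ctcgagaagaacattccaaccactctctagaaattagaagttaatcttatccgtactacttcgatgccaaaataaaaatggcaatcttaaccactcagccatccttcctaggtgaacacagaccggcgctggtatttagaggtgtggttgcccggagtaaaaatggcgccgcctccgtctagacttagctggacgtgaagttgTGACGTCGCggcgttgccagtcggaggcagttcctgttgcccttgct
Psmb6, chr11:70525107-70525356 (+ strand): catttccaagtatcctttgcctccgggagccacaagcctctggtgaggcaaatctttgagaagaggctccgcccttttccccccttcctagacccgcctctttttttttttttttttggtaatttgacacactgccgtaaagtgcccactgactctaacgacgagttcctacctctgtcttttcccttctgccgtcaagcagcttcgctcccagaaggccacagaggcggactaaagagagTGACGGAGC
Psmb3, chr11:97703184-97703433 (+ strand): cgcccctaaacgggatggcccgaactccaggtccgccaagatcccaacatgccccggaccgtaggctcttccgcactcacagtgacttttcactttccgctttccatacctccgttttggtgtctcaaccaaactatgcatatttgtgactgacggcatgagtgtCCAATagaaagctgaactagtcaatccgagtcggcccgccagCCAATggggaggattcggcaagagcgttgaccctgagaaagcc
Psma1, chr7:114276117-114276366 (- strand): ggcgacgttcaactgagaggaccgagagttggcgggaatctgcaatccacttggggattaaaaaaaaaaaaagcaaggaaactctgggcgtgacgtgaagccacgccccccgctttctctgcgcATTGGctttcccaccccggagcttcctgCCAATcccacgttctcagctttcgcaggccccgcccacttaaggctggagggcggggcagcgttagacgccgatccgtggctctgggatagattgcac
The antioxidant response element match begins 47 bases before the start in Psmb5, which did not pass, and 9 bases before it in Psmb6, which rose. Psmb3, which rose, and Psma1, which fell, both hold 2 CCAAT matches and no match to the other motif. A match describes the letters and shows no binding.

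Genes around the proteasome were read from lists. Of 12 tested further subunits and assembly factors, 5 rose, 1 fell and 6 did not pass, where 20.3% of all tested genes rose and 23.1% fell. Ecpas, which tethers the core to the regulatory particle, rose by 0.63 ± 0.13 (SE, adjusted p = 0.0067), and the ubiquitin protease Usp14, which docks on the regulatory particle, rose by 0.41. Akirin2, which brings proteasomes into the nucleus, rose by 0.32, and the ligase Ube3c by 0.37 and the thioredoxin-like Txnl1 by 0.30, both of which bind the proteasome. Fbxo7, which binds Psmf1, fell by 0.64 on the log2 scale. It lies on chromosome 10, whose tested genes had a median of -0.27, and its difference lay between -0.77 and -0.25 over all alternatives. The part of the chromosome was not tested. Pomp, the maturation factor of the core, did not pass (0.22, adjusted p = 0.176), nor did the subunit genes Adrm1 and Sem1.

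Of 14 tested genes of ubiquitin supply and shuttling, 5 rose, 0 fell and 9 did not pass. Of all tested genes, 20.3% rose and 23.1% fell. The ubiquitin-activating enzymes Uba1 (0.44) and Uba6 (0.74) rose, as did the shuttle receptor Rad23b (0.43) and both cofactors of the segregase Vcp, Ufd1 (0.37) and Nploc4 (0.69). Of 13 genes that regulate subunit genes, 0 rose, 5 fell and 8 did not pass, beside the same shares of all tested genes. Nfe2l1 was at 13.24, 13.21 and 13.07 across EpCAM- replicates 1 to 3, against 12.99, 13.10 and 12.98 across EpCAM+ replicates 1 to 3. It did not pass (0.15 ± 0.11, SE, adjusted p = 0.282). Its relative Nfe2l3 fell by 2.61 on the log2 scale (adjusted p = 2.49e-05) and the NF-Y subunit gene Nfyb by 0.69. The small Maf gene Mafk fell by 0.89, Ngly1, which deglycosylates NRF1, by 0.48, and Foxo4 by 0.42. Nfyb lies on chromosome 10, whose tested genes had a median of -0.27, and its difference lay between -0.74 and -0.29 over all alternatives. The part of the chromosome was not tested.

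The immunoproteasome subunits that replace the catalytic ones after interferon did not pass. Psmb8 was at 5.01, 6.85 and 5.00 across EpCAM- replicates 1 to 3, against 6.45, 6.38 and 8.01 across EpCAM+ replicates 1 to 3, with a difference of -1.33 ± 0.64 (SE, adjusted p = 0.135). Psmb9 had -1.15 (adjusted p = 0.152) and Psmb10 0.10 (adjusted p = 0.798). Their values overlapped between the groups, and the highest Psmb8 value was in EpCAM+ replicate 3, which was also the highest library for Psme1 and Psme2.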

How the data were processed

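RNA of 6 libraries, 3 of EpCAM- and 3 of EpCAM+ cells, was analysed. Library preparation used a KAPA HyperPrep kit for mRNA, per the labels' protocols. The submitters' processing notes name GRCm38 and the tools DESeq2 1.24.0, STAR 2.5.2 and RSEM, without their roles. The deposited values are log2 levels normalised by the authors, and the transform and annotation are not given in the sources used here. Depth is unknown, so no detection limit is given. GENCODE M21 (GRCm38) paired 25846 of 25978 identifiers with symbols. The deposited values entered limma 3.58.1 (R 4.3.3) unchanged, without covariates, and its variance prior followed the mean level. P-values are two-sided and were adjusted by Benjamini-Hochberg over all tested genes. With 3 libraries against 3, an exact permutation test cannot go below 0.1. The fit was checked on simulated data in which far fewer genes differed than passed here. That check does not measure the error of these calls. The 3 libraries of a group are biological replicates per the series text, and no label says whether numbers mark a shared tumour. Part of the genotype is not reported here. Members and lists were chosen with earlier results of these data known. Genes given in every library were the catalytic subunits, Psmd2, Psmd4, Psmd14, activators, the inhibitor and up to 4 members of each class with the largest change past the test, with the chromosome 7 genes added after values were seen. Alternatives were other filters, scalings, pseudocounts, variance settings, a replicate term, libraries left out and chromosome centring, the last chosen after seeing the data.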

Additional observations from a re-analysis of the deposited data

How the results depend on the processing

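Of 854 pairs of a tested member and an alternative, 724 kept the direction and the side of the threshold. The total of genes passing, 6850, was 4365 without EpCAM- replicate 3 and EpCAM+ replicate 1 together, and between 4953 and 7329 with 1 library left out. Without both, 6 members passed in place of 27, all 6 rose and 0 fell, with 2 core, 4 regulatory and 0 activator or assembly genes, with 4 libraries in the fit. With 1 library left out, between 14 and 28 members passed, between 13 and 27 rose and between 0 and 5 fell, and of those that rose between 3 and 10 were core, between 10 and 15 regulatory and between 0 and 2 activator or assembly genes. Of all tested genes, between 13.6% and 21.0% rose and between 17.9% and 25.4% fell with 1 library left out. With array weights 28 members rose and 6 fell, where 23.7% and 27.0% of all tested genes did. Without the variance trend 19 members rose in place of 26, where 19.4% of all tested genes rose. Without the filter 21 rose, where 12.0% of 25978 genes rose. Quantile normalisation moved the median of all tested genes to 0.14, and the members' median there was 0.35. Chromosome centring gave 4052 genes that rose and 3048 that fell, 57.1% of calls upward against 46.7% as deposited. It turned Psma1 (0.31), Psmc4 (0.44), Psmd8 (0.55) and Psmd13 (0.42) upward, by a shift larger than the median difference of chromosome 7 genes. Members near 0 that never passed changed direction: Psmd10 lay between -0.13 and 0.24 with 1 library left out, at -0.019 without the 2 libraries above and at -0.0896 after chromosome centring. Psme2b was at 0.18 after quantile normalisation and between -0.26 and 0.016 with 1 library left out and at -0.33 without those 2. Psmg3 was at 0.25 after quantile normalisation and between -0.24 and 0.24 with 1 library left out. Psmg4 was at -0.011 with array weights, -0.012 after chromosome centring and between -0.091 and 0.24 with 1 library left out. Psmb10, an immunoproteasome gene and not a member, also changed direction and lay between -0.0803 and 0.39 with 1 library left out. The causes were not tested. With the replicate number as a block, 28 members passed, of which 26 rose and 2 fell, and 7090 genes passed in all. Same-numbered libraries correlated at 0.41, 0.0438 and 0.165 in their deviations from the group means, and EpCAM- replicate 2 correlated best with EpCAM+ replicate 3, so the numbers were not taken as pairs.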

Other observations

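Another large complex, the cytosolic ribosome, was lower by its median where the proteasome was higher, and its genes on chromosome 7 were lower by median than its genes elsewhere. Its genes were taken as protein-coding genes whose whole symbol is Rpl or Rps and a number, with or without a closing a, x or y. Of 72 tested ribosomal protein genes, 0 rose, 22 fell and 50 did not pass, where 23.1% of all tested genes fell. The median log2 difference was -0.26, against 0.38 for the proteasome genes. The 13 on chromosome 7 all fell, where 49.5% of all tested chromosome 7 genes fell, with a median of -0.86 against -0.59 for that chromosome. Of the 59 elsewhere, 9 fell (15.3%), where 20.9% of all tested genes elsewhere did, with a median of -0.23. The ribosomal and proteasome genes were not tested against each other.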
